A study of Mus musculus with 12 samples.

Results

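The messenger RNA levels of 10 genes of iron uptake, storage and export were followed in the brain and liver of aged male mice after repeated heat exposure. The genes are Tfrc, Tfr2, Trf, Hamp, Slc40a1, Fth1, Ftl1, Hfe, Ireb2 and Steap3, and all 10 were found among the 25239 gene symbols of the count table. The set was selected on the measured Tfrc levels of these libraries, lower in heat stress livers and not in heat stress brains, so the heat stress values of all 10 genes, Tfrc above all, are given as a description and not as a test. The animals were wild type C57BL6/J mice of 24 months, and no allele or agent other than the heat exposure separated the groups. Heat stress mice spent 3 hours a day for 15 days at 40 ± 0.5 °C and 60% ± 5% relative humidity, and control mice did not. There were 4 groups of 3 libraries each: brain control, brain heat stress, liver control and liver heat stress, 12 libraries in all, with 3 animals per group. The labels do not say whether a brain and a liver library with the same number came from the same mouse. Whole pieces of tissue were used, so a lower level can come from fewer cells of a type or from less RNA per cell, and these cannot be told apart.

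Cells take up iron by binding iron-loaded transferrin (Trf) with transferrin receptor 1 (Tfrc). Steap3 reduces the iron in the endosome, and ferritin, built of the heavy chain Fth1 and the light chain Ftl1, stores it. Ferroportin (Slc40a1) is the cell's iron exporter, and hepcidin (Hamp), a peptide hormone made by hepatocytes, causes ferroportin to be degraded. Hepatocytes raise Hamp through transferrin receptor 2 (Tfr2), the HFE protein (Hfe) and signalling by bone morphogenetic proteins (BMP) through SMAD proteins. Inside cells, iron regulatory protein 2 (Ireb2) and its relative IRP1 (Aco1) bind a hairpin in messenger RNA, the iron-responsive element, when iron is scarce. That binding protects the Tfrc transcript from decay and blocks translation of the ferritin and ferroportin transcripts, so the level of a ferritin transcript need not follow the amount of the protein.

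The hairpins are shown because they are the sequence feature that sorts the 10 genes by how iron acts on their transcripts. In the GRCm38 (mm10) annotation, 1 transcript per gene was searched on the sense strand for a C, then 5 bases of any kind, the loop CAGTGN and 5 bases able to pair with those before the loop, with A-T, G-C and G-T pairs allowed. The 3′UTR of Tfrc held 4 such sites, and the 5′UTRs of Slc40a1, Fth1 and Ftl1 held 1 each. No site of this pattern was found in the UTRs of the other 6 genes. In each 29-base window below, capitals mark the CAGTGN loop.
Tfrc 3′UTR, chr16:32631219-32631247 (+): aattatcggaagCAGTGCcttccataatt
Tfrc 3′UTR, chr16:32631598-32631626 (+): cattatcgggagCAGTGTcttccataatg
Tfrc 3′UTR, chr16:32631663-32631691 (+): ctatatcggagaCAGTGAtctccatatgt
Tfrc 3′UTR, chr16:32631710-32631738 (+): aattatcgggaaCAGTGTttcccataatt
Slc40a1 5′UTR, chr1:45925465-45925493 (-): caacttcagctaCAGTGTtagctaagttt
Fth1 5′UTR, chr19:9982732-9982760 (+): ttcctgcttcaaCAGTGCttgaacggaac
Ftl1 5′UTR, chr7:45459779-45459807 (-): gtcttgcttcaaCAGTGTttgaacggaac

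The pattern was rare. It was present in 21 of 20556 genes with a 5′UTR (0.102%) and in 111 of 20678 genes with a 3′UTR (0.537%), and 1 gene, Tfrc, had 2 or more sites in the 3′UTR. In stretches as long as the members' own UTRs, cut from genes whose UTRs were at least that long, the share was 1.09% for Tfrc, 0.181% for Slc40a1, 0.143% for Fth1 and 0.0731% for Ftl1. All these counts and shares include the members themselves. For Fth1 the only match, 1 of 699 genes, was Fth1 itself. A match describes the letters and does not show that a protein was bound. The 10 genes lie apart in the genome: Tfrc at chr16:32608920-32632794 (+), Hamp at chr7:30942368-30944032 (-), Ftl1 at chr7:45457944-45459884 (-), Slc40a1 at chr1:45908068-45926523 (-), Steap3 at chr1:120190757-120272705 (-), Trf at chr9:103204001-103230444 (-), Ireb2 at chr9:54863789-54912530 (+), Tfr2 at chr5:137569840-137587481 (+), Hfe at chr13:23702034-23710854 (-) and Fth1 at chr19:9980598-9985098 (+).

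Total counts ran from 10466198 to 15609040 per library. Levels are given as CPM, counts scaled to a common library size, after TMM scaling, which corrects for a few abundant genes taking up a library. The scaling was done within the libraries of each comparison, so a liver level in the comparison of tissues is on another scale than in the comparison of heat stress with control. The livers carried hepatocyte markers at a summed 77320 to 118335 CPM. A pair of livers stood apart: the summed level of 8 skeletal muscle markers was 385 CPM in liver control 1 and 2205 CPM in liver heat stress 2, and 1.03 to 7.10 CPM in the other 4 livers. Liver control 1 also had the highest neuronal (37.4 CPM) and oligodendrocyte (49.7 CPM) marker sums of the 6 livers, against at most 20.3 and 22.3 CPM elsewhere. Blood could not be judged from globin, since the 4 globin genes were listed at 0 in all 12 libraries.

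The comparison of control liver with control brain was not used to choose the genes. In it, 8 of the 10 genes were called higher in liver and 0 lower, with called meaning an adjusted p under 0.05 (edgeR quasi-likelihood test, Benjamini-Hochberg adjustment over 15213 genes). The background is high, because 78.3% of all genes tested were called, 35.5% higher and 42.8% lower in liver. The liver and brain controls did not overlap for 9 of the 10, all higher in liver, where 81.6% of all genes did not overlap, 37.1% higher and 44.4% lower. Without regard to direction, the share of members called is near that background, so that count says nothing particular of them. In the higher direction, 8 of 10 is above the 35.5% of all genes. The set was not tested as a whole, and the size of each difference follows.

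Hamp had no count in any brain control library and 1215 ± 283 CPM (SD, n = 3) in liver controls. This was at least 7519-fold higher in liver when each brain library is set at a floor of 3 counts. Tfr2, the receptor that senses transferrin in hepatocytes, was higher in liver by 6.25 on the log2 scale (SE 0.39, adjusted p = 4.49e-07, edgeR). Trf, the plasma iron carrier that the liver secretes, was higher by 5.83 (SE 0.38, adjusted p = 5.80e-07, edgeR). Ftl1 was higher by 4.89 (SE 0.32, adjusted p = 5.79e-07, edgeR), and Slc40a1 by 4.53 (SE 0.23, adjusted p = 1.74e-07, edgeR). Hfe was higher by 3.86 (SE 0.25, adjusted p = 5.37e-07, edgeR). The differences of Steap3 (2.30, SE 0.35, adjusted p = 2.04e-04, edgeR) and Ireb2 (1.89, SE 0.23, adjusted p = 4.77e-05, edgeR) were smaller.

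The ferritin chains parted. Fth1 differed by 0.65 on the log2 scale (SE 0.28), and the adjusted p of 0.0567 (edgeR) missed the threshold, although every liver control was above every brain control. It passed in 4 other settings, among them the fit with the replicate number as a block (0.64, adjusted p = 0.0291, edgeR). Tfrc was close to equal, at 91.0 ± 8.14 CPM in liver and 88.2 ± 3.02 CPM in brain controls, a log2 difference of 0.045 (SE 0.17, adjusted p = 0.814, edgeR) that changed sign in some settings. In the heat stress libraries the same comparison of liver with brain gave -1.72 for Tfrc.

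Per kilobase of all annotated exons merged, the order of the 10 genes was not the same in both tissues. In liver controls Trf (5999 ± 677 CPM per kb) and Ftl1 (5082 ± 893) led and did not differ beyond their spread, followed by Hamp (2964 ± 689), Fth1 (849 ± 202) and Tfr2 (83.8 ± 37.1). Hfe (25.2 ± 5.41), Slc40a1 (19.9 ± 3.03), Ireb2 (19.7 ± 4.97) and Tfrc (14.7 ± 1.32) came next, with each neighbour within the spread, and Steap3 was lowest (3.21 ± 1.62). In brain controls Fth1 led (543 ± 98.0), ahead of Ftl1 (171 ± 31.7), Trf (105 ± 33.0) and Tfrc (14.3 ± 0.488). Ireb2 stood at 5.31 ± 0.587, Hfe at 1.74 ± 0.335, Tfr2 at 1.10 ± 0.187, Slc40a1 at 0.856 ± 0.140, Steap3 at 0.650 ± 0.113 and Hamp at 0. Tfrc was thus the ninth member in liver and the fourth in brain at nearly the same level. Divided by the length of 1 transcript per gene instead, an alternative chosen after seeing the data, Tfrc kept both places, while Slc40a1, whose merged exons are much longer than its transcript, was at 53.1 ± 8.10 in liver and 2.29 ± 0.373 in brain and passed Hfe in liver and Hfe and Tfr2 in brain. Ireb2 (32.4 ± 8.17) also passed Hfe in liver.

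**Figure D1:**
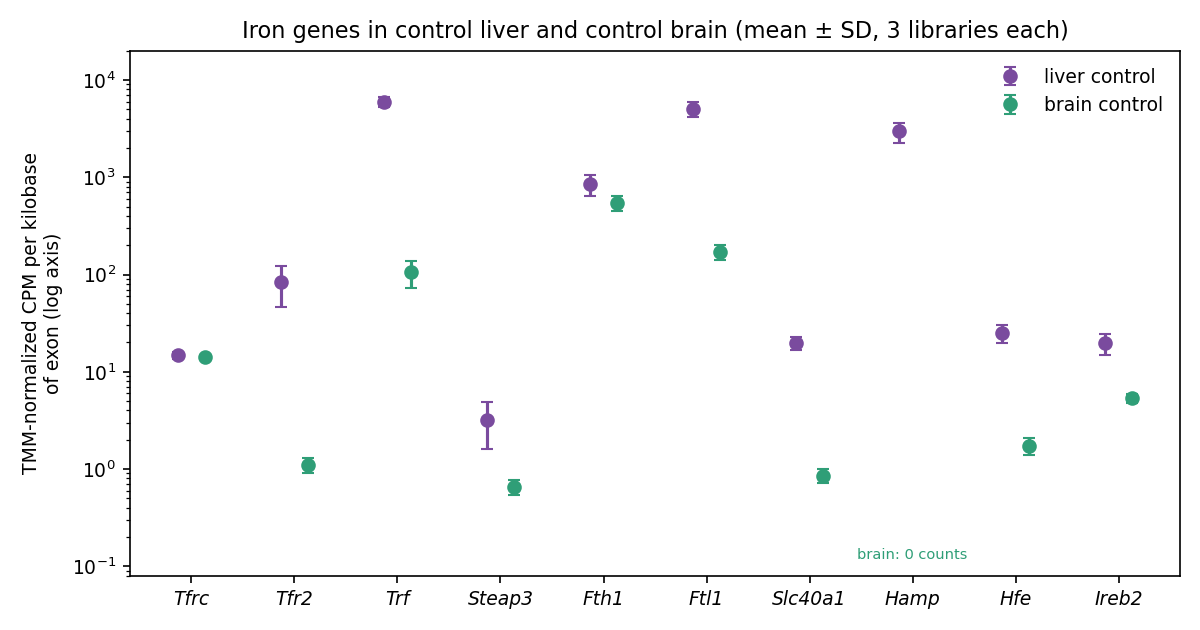
Level of the 10 genes in liver control and brain control, in CPM per kilobase on a log axis, with points for group means and error bars of 1 SD (n = 3). Tfrc lies at about the same height in both tissues, while Trf and Ftl1 lie far higher in liver and Hamp, at 0 counts in brain controls, is drawn for liver alone.

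Tfrc had the largest log2 fold change of the members in liver under heat stress, and not in brain. In liver it stood at 51.7, 70.2 and 63.7 CPM in the 3 control libraries and at 27.3, 16.2 and 23.6 CPM in the 3 heat stress libraries. Every heat stress liver was below every control liver, with means of 22.4 ± 5.68 and 61.9 ± 9.39 CPM (SD, n = 3), a ratio of 0.361. The log2 fold change was -1.47 (SE 0.22). In brain it stood at 133.5, 125.3 and 129.0 CPM in controls and at 167.9, 179.7 and 151.8 CPM under heat stress. Every heat stress brain was above every control brain, with means of 166 ± 14.01 and 129 ± 4.09 CPM, a ratio of 1.29 and a log2 fold change of 0.36 (SE 0.11). The liver change minus the brain change was -1.84 (SE 0.24), and this contrast is the one the gene was chosen for.

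**Figure D2:**
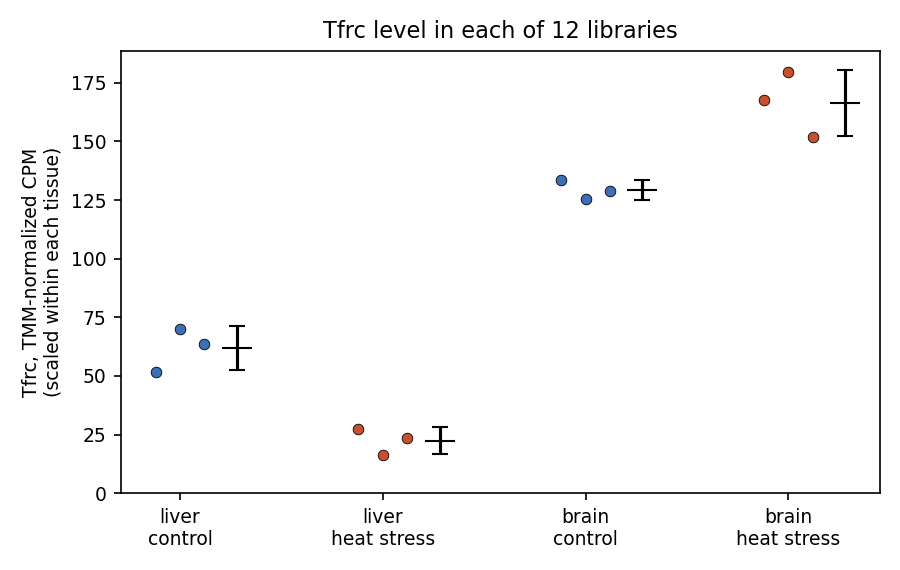
Tfrc level in each of the 12 libraries, in CPM on an axis from 0, by tissue and group, with points for libraries and, beside them, the group mean with an error bar of 1 SD. Heat stress livers sit between 16.2 and 27.3 CPM, all below the control livers, and heat stress brains sit between 151.8 and 179.7 CPM, all above the control brains.

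The liver value of Tfrc was also taken without the livers with muscle transcripts, and the part of muscle in it was not tested. Without both of them, which leaves 2 livers per group, the log2 fold change was -1.41 (SE 0.20). Over 19 other settings it ran from -1.84 to -1.28, and on leaving out 1 library from -1.66 to -1.28. The headers of liver control 2, liver heat stress 1 and liver heat stress 3 carry a suffix, 2nd, that no source explains. Neither liver with muscle transcripts carries it. Without those livers, for this and every other gene, both remaining heat stress livers have the suffix, and of the controls only liver control 2 has it. Muscle and suffix cannot be told apart in that fit. Among these 3 libraries the log2 fold change of Tfrc was -1.46, and among the 3 livers without the suffix it was -1.84. Each set has 1 library in 1 of its groups, and no test was made within it. Both values are log2 ratios of mean CPM and not fits, and -1.84 is also the lower end of the range above. In brain, 7 of 8 endothelial markers were lower in every heat stress library than in every control, where 12% of all genes were, with summed levels of 236 to 304 CPM against 321 to 483 CPM. Brain capillary endothelium is known to carry much transferrin receptor, and the part of this shift in the brain values was not tested.

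In liver, the edgeR test called 0 of the 10 members at an adjusted p under 0.05, and it called 0% of 12296 genes in all. At an unadjusted p under 0.05, 2 members passed, Hamp higher and Tfrc lower, where 5.84% of all genes did. DESeq2 called 1 member, Tfrc, and 0.538% of 12276 genes. The groups did not overlap for 1 member in each direction, against 5.38% of all genes higher and 5.73% lower. Since the genes were picked with this contrast in view, nothing is read from these counts. The median log2 fold change of the members was 0.22, beside 0.011 for all genes.

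Hamp was higher in mean in heat stress livers and did not pass the adjusted threshold (adjusted p = 0.834, edgeR). Its levels were 961.3, 720.9 and 761.0 CPM in controls and 1058, 1292 and 1103 CPM under heat stress. The groups did not overlap, where 5.38% of all genes were higher in this way. The means were 814 ± 129 and 1151 ± 124 CPM, with a log2 fold change of 0.50 (SE 0.20). The gap between the highest control and the lowest heat stress liver was smaller than the SD of either group. The direction held in all 19 other settings, from 0.41 to 0.62, and the value was 0.53 (SE 0.22) without the livers with muscle transcripts. Hamp2, its close paralog on the same chromosome, took 0.597% to 5.00% of the counts of both genes in each liver, and its levels of 50.6, 14.8 and 11.9 CPM in controls and 19.4, 40.4 and 6.62 CPM under heat stress overlapped. How reads that fit both genes were counted is not given in the sources used here, so their split is uncertain.

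The promoter of Hamp is shown because the inputs to this gene are read there. The 120 bases before its start, chr7:30944030-30944149 on the minus strand (RefSeq, GRCm38.p6), follow, with capitals marking GGCGCC, the core of the BMP-responsive element, and TTCNNNGAA, the STAT pattern bound after interleukin 6.
Hamp promoter: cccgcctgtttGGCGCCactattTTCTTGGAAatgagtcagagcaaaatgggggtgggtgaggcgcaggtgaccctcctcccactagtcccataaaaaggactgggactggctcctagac
GGCGCC begins 109 and TTCNNNGAA 97 bases before the start, and the matches do not overlap. Searched on both strands in the 250 bases before each start, 9.59% of 32851 promoters held the first and 7.02% held the second. Promoters were matched for 8 of the 10 members, all but Slc40a1 and Trf. Among these 8, GGCGCC was also found in 1 of 2 Tfrc promoters, 89 bases before the start, and TTCNNNGAA in Hamp alone. Among the partners found in the promoter table, Neo1 held GGCGCC, and Hamp2 and 1 promoter of Alas1 held TTCNNNGAA.

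Known targets of BMP and SMAD signalling were described alongside, because they share this input with Hamp. Like all gene lists here, they were chosen with earlier results of these data known. Id1, a transcriptional inhibitor induced by BMP, stood at 6.78, 4.16 and 7.27 CPM in control livers and at 13.6, 12.5 and 18.1 CPM in heat stress livers. Smad7, the feedback inhibitor of the pathway, stood at 9.62, 4.81 and 4.75 CPM in controls and at 11.1, 15.5 and 14.4 CPM under heat stress. All heat stress livers were above all controls for both, where 5.38% of all genes were higher in this way. The log2 fold changes were 1.28 (SE 0.26) for Id1 and 1.08 (SE 0.30) for Smad7, and neither passed the adjusted threshold (edgeR). Each passed in 5 of 17 other settings, among them the fit without the livers with muscle transcripts, where the values were 1.46 and 1.40. That fit called 81 genes in all. Bmp6, the ligand that endothelial cells send to hepatocytes, was at 5.29, 4.65 and 4.94 CPM in controls and 5.06, 6.41 and 6.55 CPM under heat stress, and the groups overlapped. The coreceptor Hjv (log2 fold change 0.10, SE 0.16), its protease Tmprss6 (0.057, SE 0.25) and its partner Neo1 (-0.18, SE 0.19) lay near 0.

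**Figure D3:**
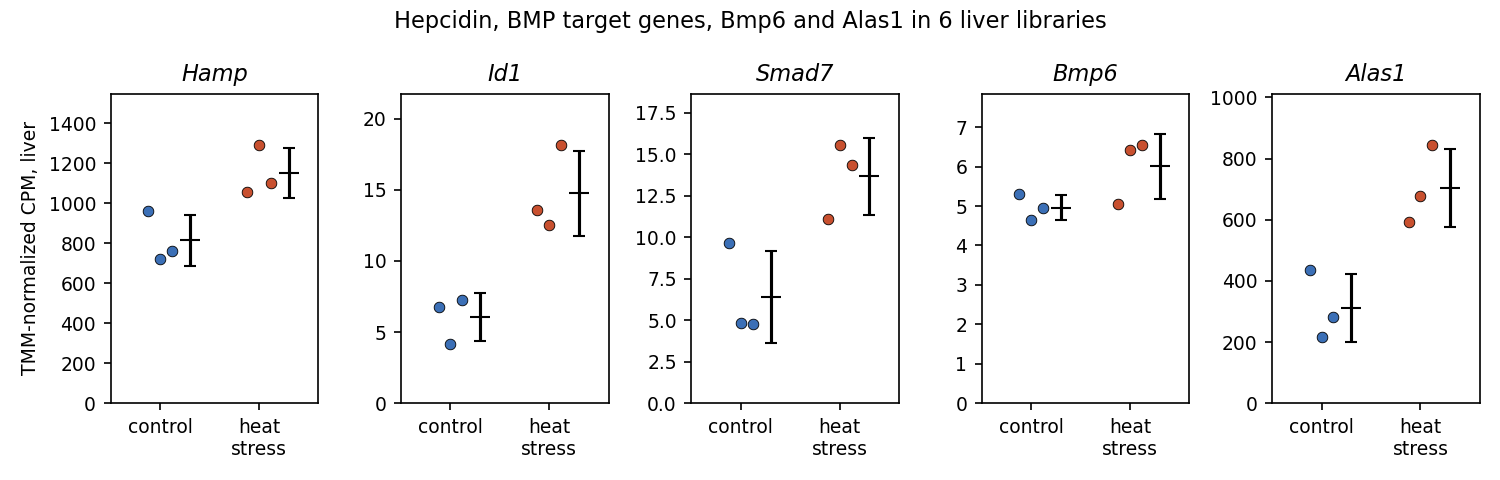
Levels of Hamp, Id1, Smad7, Bmp6 and Alas1 in the 6 liver libraries, in CPM with a linear axis from 0 for each gene, with points for libraries and, beside them, the group mean with an error bar of 1 SD. For Hamp, Id1, Smad7 and Alas1, the rate-limiting enzyme of heme synthesis, every heat stress liver lies above every control liver, and for Bmp6 the groups overlap. Of all genes, 5.38% were higher in this way.

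In the list of 21 genes of hepcidin control by BMP and SMAD, 20 were tested in liver and 0 were called by edgeR. At an unadjusted p under 0.05, 4 were higher and 0 lower, where 2.97% of all genes were higher and 2.87% lower. Of these, Id1 and Smad7 were named above, and Atoh8 and Acvr2b are named after their values were seen. Atoh8, a BMP target, had a log2 fold change of 1.03 (SE 0.32) with overlapping groups, and Acvr2b, a type 2 receptor, had 0.54 (SE 0.23). The median of the list was 0.095, beside 0.011 for all genes.

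For the ferritin and transport members in liver, the groups overlapped. Trf was at 12999, 12308 and 15069 CPM in controls and at 20246, 13949 and 22383 CPM under heat stress. Heat stress liver 2 lay among the controls and the other heat stress livers above them, with a log2 fold change of 0.49 (SE 0.24). This value was 0.79 among the livers with the header suffix and -0.0088 among those without, and the single heat stress library of the second set is heat stress liver 2, a liver with muscle transcripts. Ftl1 was at 3871, 5805 and 4219 CPM in controls and at 7732, 4554 and 7439 CPM under heat stress. It showed the same layout, with heat stress liver 2 inside the control range and a log2 fold change of 0.51 (SE 0.27), and the values within the sets were 0.39 and 0.17. Fth1 was at 1572, 2663 and 1792 CPM in controls and 2308, 1833 and 2541 CPM under heat stress, which overlapped throughout (0.15, SE 0.25).

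Slc40a1 was at 92.1, 138.1 and 136.0 CPM in control livers and 181.6, 118.3 and 147.6 CPM under heat stress, with a log2 fold change of 0.29 (SE 0.23). The groups overlapped. Kupffer cells, which also export iron, were followed by 8 markers whose summed level was 133 to 235 CPM in controls and 181 to 329 CPM under heat stress, highest in heat stress liver 1, where Slc40a1 was highest as well. The part of these cells in the Slc40a1 level was not tested.

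The remaining members overlapped between groups in liver: Tfr2 and Hfe, which act in the sensing of plasma iron, and Ireb2 and Steap3. Tfr2 was at 341.7, 174.8 and 207.3 CPM in control livers and 194.9, 289.4 and 315.3 CPM under heat stress (0.14, SE 0.28). Its highest value was in liver control 1, and without both livers with muscle transcripts the log2 fold change was 0.40 (SE 0.23). Hfe was at 70.0, 54.2 and 56.8 CPM in controls and 61.9, 53.3 and 57.3 CPM under heat stress (-0.070, SE 0.17). Ireb2 was at 84.6, 140.0 and 159.2 CPM in controls and 154.1, 114.1 and 101.3 CPM under heat stress (-0.054, SE 0.26), and Aco1, the other hairpin-binding protein, gave -0.019 (SE 0.22). Steap3 was at 18.1, 8.40 and 9.97 CPM in controls and 13.9, 17.9 and 16.2 CPM under heat stress. Its log2 fold change was 0.39 (SE 0.28), and 0.70 (SE 0.25) without the livers with muscle transcripts, since liver control 1 held its highest level.

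In the list of 23 genes of heme synthesis, breakdown and scavenging, 0 were called in liver and 1, Alas1, was higher at an unadjusted p under 0.05, where 2.97% of all genes were. Alas1 stood at 435.4, 216.7 and 280.9 CPM in controls and at 592.0, 676.9 and 843.9 CPM under heat stress. All heat stress livers were above all controls, where 5.38% of all genes were higher in this way. The log2 fold change of Alas1 was 1.18 (SE 0.27), and 1.51 (SE 0.23) without the livers with muscle transcripts. It passed the adjusted threshold in 6 of 17 other settings, the last among them. Hmox1, which breaks heme down, gave 0.50 (SE 0.24), and the scavengers Hp and Hpx gave 0.38 (SE 0.28) and 0.21 (SE 0.26), all with overlapping groups. On leaving out 1 library, Hmox1 ran from 0.25 to 0.66, Hp from 0.060 to 0.57 and Hpx from 0.015 to 0.36. Without both livers with muscle transcripts, the values were 0.39 (SE 0.26), 0.68 (SE 0.27) and 0.37 (SE 0.27) in that order. Of 18 other iron transport and storage genes tested, 0 were called and 0 passed unadjusted in either direction. Among them the iron importer Slc11a2 gave -0.40 (SE 0.19), the importer Slc39a14 0.10 (SE 0.18), the ferroxidase Cp -0.022 (SE 0.24), the ferritin receptor of autophagy Ncoa4 -0.070 (SE 0.31) and Fbxl5, which marks Ireb2 protein for decay, -0.081 (SE 0.17). Lcn2, an iron-siderophore carrier of the acute phase, gave 0.80 (SE 0.42) at 1.14 to 5.29 CPM, and 1.56 (SE 0.40) without the livers with muscle transcripts.

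The Tfrc gene is known to be transcribed more in dividing and in oxygen-poor cells, and genes of both states were counted beside it, where 5.84% of all genes passed unadjusted and 2.87% were lower. Of 6 proliferation genes tested in liver, 0 were called and 0 passed unadjusted. Of 14 hypoxia-inducible genes, 0 were called and 1 was lower unadjusted. That gene, Ddit4, is named after its value was seen (-1.36, SE 0.42, groups overlapping). Of 23 genes of iron-sulfur cluster assembly, which uses imported iron in mitochondria, 0 were called and 0 passed unadjusted, with a median of 0.0069.

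**Figure D4:**
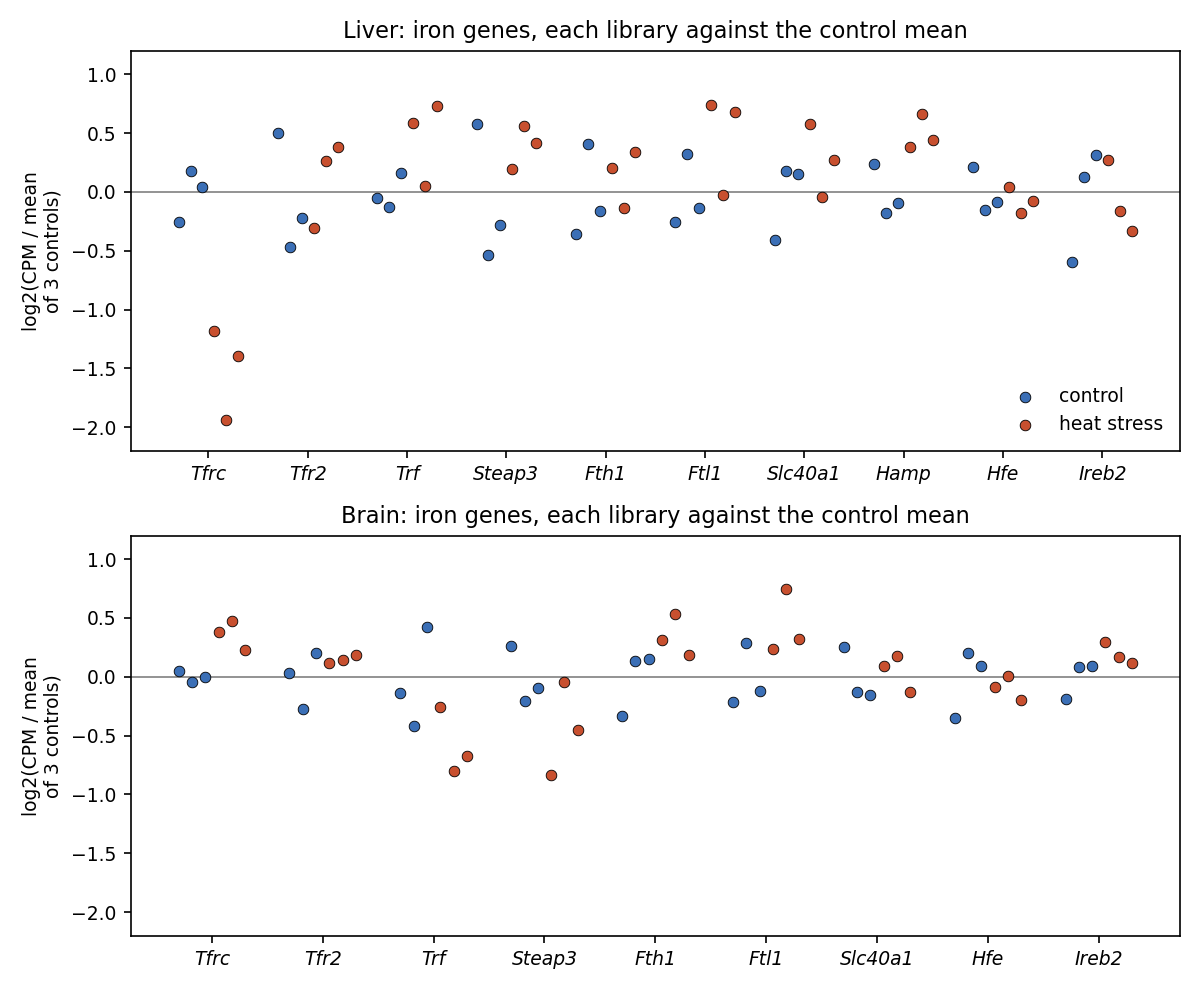
Level of each iron gene in each of the 12 libraries as the log2 ratio of its CPM to the mean CPM of the 3 controls of that tissue, with liver above and brain below and a point for each library. Heat stress points of Tfrc lie below all controls in liver and above all controls in brain, and Hamp is drawn for liver alone.

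In brain, Hamp had 0 counts in the 3 controls and 3, 1 and 0 counts under heat stress, so it was not tested there. Of the 9 other members, edgeR called 0 at an adjusted p under 0.05, and it called 0% of 14806 genes in all. At an unadjusted p under 0.05, Tfrc and Ftl1 were higher and Trf lower, 3 of 9, where 20.1% of all genes passed. DESeq2 called 0 of them and 4.71% of 11646 genes. Groups did not overlap for 3 members, all higher, where 24.9% of all genes did not overlap, 12.9% higher and 12% lower.

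Those 3 were Tfrc, Fth1 and Ireb2. Fth1 stood at 2191, 3025 and 3060 CPM in control brains and 3418, 3994 and 3128 CPM under heat stress, a log2 fold change of 0.35 (SE 0.19). The lowest heat stress brain was just above the highest control. Ireb2 stood at 64.6, 78.1 and 78.7 CPM in controls and 90.9, 82.8 and 79.9 CPM under heat stress (0.20, SE 0.12), with an equally narrow gap. Ftl1 was at 289.7, 409.6 and 310.3 CPM in controls and 397.6, 565.7 and 421.1 CPM under heat stress (0.46, SE 0.18), and brain control 2 reached into the heat stress range.

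Trf was lower in mean in heat stress brains, at 465.4, 384.1 and 685.9 CPM in controls and 429.2, 294.1 and 321.5 CPM under heat stress. The groups overlapped, with a log2 fold change of -0.56 (SE 0.23). On leaving out 1 library, this value ran from -0.74 without brain heat stress 1 to -0.29 without brain control 3. Transferrin in brain is made by oligodendrocytes and choroid plexus. The 8 oligodendrocyte markers summed to 7295 to 12682 CPM in controls and 9097 to 12329 CPM under heat stress, and the 8 choroid plexus markers to 1811 to 3487 CPM in controls and 530.3 to 1602 CPM under heat stress. The choroid plexus sum was lower in every heat stress brain than in every control. Taken singly, 3 of its 8 markers were, where 12% of all genes were. Both sums were highest among controls in brain control 3, where Trf was highest too, and among heat stress brains Trf and the oligodendrocyte sum were highest in number 1 and the choroid plexus sum in number 2. The part of either cell type in the Trf level was not tested.

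The other members overlapped between the brain groups. Slc40a1 was at 13.4, 10.3 and 10.1 CPM in controls and 12, 12.7 and 10.3 CPM under heat stress (0.046, SE 0.17). Tfr2 was at 7.13, 5.76 and 8.01 CPM in controls and 7.57, 7.70 and 7.93 CPM under heat stress (0.15, SE 0.19). Hfe gave -0.086 (SE 0.19) and Steap3 -0.41 (SE 0.26), both with overlapping groups. Among the genes of hepcidin control, the values of Smad7 (-0.28, SE 0.12) and Neo1 (-0.41, SE 0.12) were lower in every heat stress brain, and Id1 overlapped (0.25, SE 0.19). Tmprss6, an inhibitor of hepcidin control, was higher in every heat stress brain, with a log2 fold change of 1.52 (SE 0.42) at a low 1.30 ± 0.363 CPM against 0.451 ± 0.0953 CPM, and it did not pass the adjusted threshold (edgeR). Fbxl5 (0.19, SE 0.10) was higher in every heat stress brain and Slc39a14 (-0.40, SE 0.13) lower in every one. Of 15 partner genes tested in brain, 2 were higher in this way and 3 lower, where 12.9% of all genes were higher and 12% lower. Alas1 gave -0.34 (SE 0.15) with overlapping groups.

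The gene lists showed no call in brain either. At an unadjusted p under 0.05, where 10% of all genes were higher and 10% lower, 1 gene of hepcidin control was higher and 4 lower of 18 tested, 0 and 2 of 18 for other iron transport and storage, 1 and 1 of 22 for heme, and 3 and 3 of 15 for hypoxia-inducible genes. Of 23 iron-sulfur cluster assembly genes, 6 were higher and 0 lower. The 6, named after their values were seen, were the sulfur donor Nfs1 with its partner Lyrm4, the ferredoxin Fdx2 and the carriers Glrx5, Isca2 and Nfu1. The median of that list was 0.19, beside -0.0030 for all genes.

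**Figure D5:**
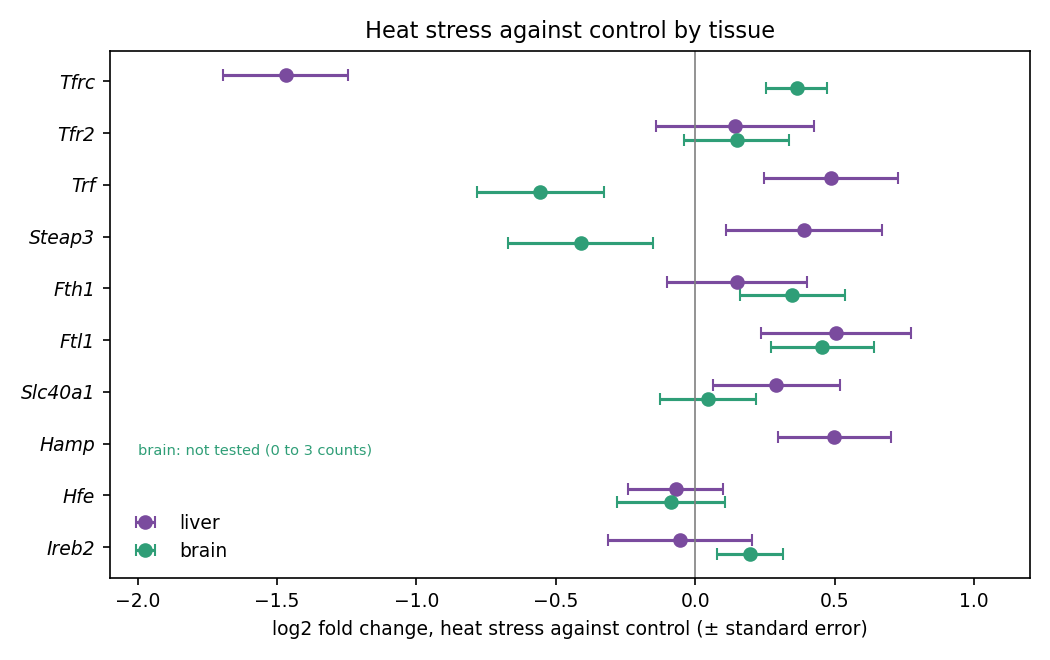
Log2 fold change of heat stress over control for the 10 genes in liver and in brain, with error bars of 1 SE and n = 3 libraries per group. Tfrc lies at -1.47 in liver and 0.36 in brain, Hamp has a liver value alone, and Trf and Steap3 lie above 0 in liver and below 0 in brain.

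The difference between tissues was tested in 1 fit over all 12 libraries, as the liver change minus the brain change. Of 15824 genes, 0.00632% were called, which is 1 gene, Tfrc, the gene chosen for this contrast, and the call was lost in 13 of 18 other settings. The largest difference among the other members was that of Trf, 1.03 (SE 0.41), with a higher mean in liver and a lower mean in brain under heat stress, followed by Steap3 at 0.76 (SE 0.44). The differences of Slc40a1 (0.24, SE 0.27), Ireb2 (-0.24, SE 0.29), Fth1 (-0.20, SE 0.34), Ftl1 (0.041, SE 0.37), Tfr2 (-0.041, SE 0.40) and Hfe (-0.0085, SE 0.26) were within 1 SE of 0. The adjusted p of these 8 genes ran from 0.516 to 1 (edgeR), which does not show that the tissues acted alike. Hamp has no usable value here, because brain held at most 3 counts. Among its regulators and the heme genes, Smad7 (1.32, SE 0.38), Id1 (1.01, SE 0.35) and Alas1 (1.48, SE 0.39) had positive differences and Tmprss6 a negative one (-1.48, SE 0.53), and none of the 4 passed, with an adjusted p of 0.516 each (edgeR). Over 18 other settings, Smad7 passed in 2 and Alas1 in 1, and Id1 and Tmprss6 in 0.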

How the data were processed

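Messenger RNA was sequenced from brain and liver of control and heat stress mice, 3 libraries per group. The authors deposited raw read counts for 25239 gene symbols. The submitters' processing notes name FastQC 0.11.9, Trimmomatic 0.39, HISAT2 2.2.1, featureCounts of Subread 2.0.1, DESeq2 1.22.2 and mm10, while the study's methods also describe Tophat2 and HTSeq. Which annotation release was counted, whether strand was used and how shared reads were treated are not given in the sources used here. The authors' tables of fold changes and p-values were not used.

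Counts were compared in R 4.3.3 with edgeR 4.0.16 (robust quasi-likelihood test, TMM, filterByExpr at min.count 10 and min.total.count 15, Benjamini-Hochberg adjustment over all genes tested). A gene was called at an adjusted p under 0.05. SE was taken from the F statistic, as the size of the log2 fold change over its root. DESeq2 1.42.0, other scalings and filters, a replicate block, covariates and leaving out libraries were alternatives. The fits were tested on simulated data. Exon lengths, UTRs and gene positions came from GENCODE M21 and promoters from RefSeq.

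The members and all gene lists were chosen with earlier results of these data known. The 10 members and 18 partner genes were named whatever their values. Of other lists, counts are given, with further names stated as chosen after their values were seen.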

Additional observations from a re-analysis of the deposited data

Results flagged for a closer look

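For Tfrc the liver change minus the brain change was -1.84 on the log2 scale, with all 3 heat stress livers below and all 3 heat stress brains above their controls. It is listed here because the tissues differed in the test of the difference, and that call was lost in 13 of 18 other settings. The gene was chosen for this contrast, so the value and the test restate the choice and are not independent evidence.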

How the results depend on the processing

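A floor of 3 counts equals 1.92e-05% to 2.87e-05% of a library, and levels near it rest on very few reads. Genes called in liver, 0 as reported, numbered 66 with DESeq2, 8 with no filter, 1 with the replicate block, 14 with all 12 libraries in 1 fit, 81 without both livers with muscle transcripts, 75 with a muscle covariate and 6 with the header suffix as covariate. With alternatives chosen after seeing the data, they numbered 99 with DESeq2 without both those livers and 135 with DESeq2 and the muscle covariate. Leaving out 1 library gave 0 to 25, the highest without liver control 1. Members called in liver, 0 as reported, were 1, Tfrc, in each of these settings but the replicate block, and 0 to 1 on leaving out 1 library (1 without liver control 1). In brain DESeq2 called 549 genes, against 0 as reported, and 0 members.

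For the difference between tissues, Tfrc was the 1 member called. Members called were 0 with RLE scaling, 0 with no filter and 0 with the replicate block, and 0 to 1 on leaving out 1 library, where the call was kept without liver control 1 or liver heat stress 1. Genes called, 1 as reported, were 0 with RLE, 43 with DESeq2, 0 with no filter, 0 with the replicate block, 7 without both livers with muscle transcripts and 0 to 4 on leaving out 1 library. The direction of Tfrc was the same throughout.

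In the control comparison, 8 members were called, 9 in some settings, and 11391 to 12988 genes. Fth1 passed with DESeq2 (0.62, adjusted p = 0.0227), with the replicate block (0.64, adjusted p = 0.0291 by edgeR), with all 12 libraries (0.64, adjusted p = 0.0256 by edgeR) and without liver control 1 (0.75, adjusted p = 0.0264 by edgeR). Tfrc turned sign with no filter (-0.0012), with heat stress libraries in place of controls (-1.72) and on leaving out 1 library (-0.033 to 0.11). With heat stress libraries in place of controls Bmp6 (0.043), Id1 (0.74) and Smad7 (0.27) also turned sign. That setting changes the samples and not the processing, so its values also hold the difference of the heat effect between tissues. For Tfrc this is the difference the gene was chosen for. The cause of the other sign changes was not tested.

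Within a tissue, control and heat stress samples with the same number did not deviate together, with correlations of -0.51, -0.48 and 0.084 in liver and -0.27, 0.17 and -0.18 in brain. Between brain and liver, same-numbered controls correlated at 0.20, 0.16 and 0.079, above every other-numbered control pair (-0.20 to 0.051), and same-numbered heat stress samples at 0.026, -0.10 and 0.012. Not every pair passed 0.1, so the numbers were not used to pair samples, and whether same-numbered tissues share a mouse is not settled.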
